A study of Mus musculus with 6 samples.

Results

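The data concern 10 genes of the PIWI-interacting RNA (piRNA) pathway and the germ granule in mouse male germ cells, Piwil1, Piwil2, Ddx4, Mael, Tdrd1, Tdrd5, Tdrd6, Tdrd7, Tdrd9 and Pld6. Their contigs were found by gene symbol in the table of single-read poly(A) tails, ignoring case, which gave 18 of 11517 transcript contigs and 10 of 7108 genes with a symbol. Native polyadenylated RNA was sequenced by the nanopore direct RNA method, in which each read is 1 RNA molecule and carries its own poly(A) tail. Adult C57BL/6J/B6 male mice provided both cell types, pachytene and diplotene (P/D) spermatocytes and round spermatids (RS), and the labels name no mutation or treatment. The cells were sorted from whole testis by Hoechst and propidium iodide staining, and each cell type had 3 samples, each of mRNA pooled from 3 mice. The study's reporting summary states that both cell types came from the same animals, but not which animals entered which numbered pool. Samples were barcoded and multiplexed by cell type, 3 to a library, so in every comparison below the library and the cell type cannot be told apart. By the study's microscopy a large part of the cells in the P/D gate were not P/D spermatocytes, whereas most cells in the RS gate were RS, so every P/D value below is that of a mixed population.

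piRNAs are small RNAs of the germ line that guide PIWI proteins to transposon and other RNAs, and in the adult testis they are made in large amounts from the pachytene stage of meiosis onward. Much of the pathway sits in ribonucleoprotein granules without a membrane, the intermitochondrial cement of spermatocytes and the chromatoid body of round spermatids. Tudor domain proteins are the scaffolds of these granules and hold PIWI proteins through their methylated arginines. Mice lacking one of these proteins are commonly sterile as males, with an arrest whose stage differs from gene to gene. The comparison asks how the mRNAs of this machinery, and their tails, differ between the cells that make pachytene piRNAs and the haploid cells that follow.

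The 3′ ends of the annotated transcripts were examined first, since the tail is added just downstream of the polyadenylation signal. The hexamer AATAAA lay in the last 50 bases of 13 of the 16 member transcripts tested for tail length (81.2%), against 63.2% of the 6901 such transcripts with a sequence, and AATAAA or ATTAAA in 14 of 16 (87.5%) against 77.5%. The Tdrd1 transcripts have the same hexamer at the same position, as have those of Ddx4 and those of Tdrd7, so the 16 are not independent. The windows below show the genes whose mean tails in RS lay below those in P/D spermatocytes in every sample (Piwil1, Pld6, Tdrd7) and 5 whose means lay above (Piwil2, Tdrd9, Mael, Tdrd6, Ddx4), with the signal in capitals, 5′ to 3′ on the strand of the mRNA, and at most 30 bases each.
Piwil1: cagctcAATAAAgtttctgtctcacttta
Pld6: tatttcAATAAAtattttcaagtatga
Tdrd7: tattagAATAAAatgtttagcaatataaaa
Piwil2: gtgtaaAATAAAaacaatgtatgtgtata
Tdrd9: ggaaacAATAAAggcattgggcttggtttc
Mael: tcatagATTAAAagtaattgtggttggaga
Tdrd6: catttgAATAAAgtttatccttaaagctg
Ddx4: cttgcaAATAAAagatgaaacacatttccc
These windows lie in the last exon on the plus strand for Piwil1 at chr5:128755446-128755474, Tdrd7 at chr4:46034732-46034761, Tdrd9 at chr12:112068820-112068849, and on the minus strand for Pld6 at chr11:59783897-59783923, Piwil2 at chr14:70372477-70372505, Mael at chr1:166201388-166201417, Tdrd6 at chr17:43615335-43615363, Ddx4 at chr13:112598338-112598367, all in GRCm38 with GENCODE vM21 transcripts. The canonical hexamer stood at the ends of genes with lower and of genes with higher means in RS, and the main Mael transcript carried ATTAAA. Neither hexamer was found in the last 50 bases of the Tdrd5 transcripts or of the second Mael transcript. Cytoplasmic polyadenylation elements, searched as TTTTAT or TTTTAAT on the mRNA strand in the last 200 bases, were present in 4 of the 16 member transcripts (25%) against 22.4% of all those tested, and the 4 belonged to Ddx4, Mael and Tdrd5.

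Promoters were read as well. MYBL1 (A-MYB) is known as a transcription factor of pachytene piRNA loci and piRNA pathway genes in spermatocytes. The MYB-type motif AACNGNC, searched on both strands in windows from 250 bases before to 50 bases after each RefSeq gene start (GRCm38.p6), was found in 10 of 13 windows of the 8 members with an entry (76.9%), against 32.8% of 32851 windows of the same length. Piwil2 and Tdrd6 are not in the table used here. Tdrd1 and Tdrd7 had 3 windows each and Pld6 had 2, so the windows are not independent. The window of Piwil1, which was lower in RS, held 3, that of Mael, whose accumulation did not pass the test, held 1, and the windows of Tdrd7, which was higher in RS, held 2, 1 and 1. Those of Piwil1 and Mael are shown here with the matches in capitals (a match on the other strand reads GNCNGTT, and its letters are those of the gene's strand).
Piwil1: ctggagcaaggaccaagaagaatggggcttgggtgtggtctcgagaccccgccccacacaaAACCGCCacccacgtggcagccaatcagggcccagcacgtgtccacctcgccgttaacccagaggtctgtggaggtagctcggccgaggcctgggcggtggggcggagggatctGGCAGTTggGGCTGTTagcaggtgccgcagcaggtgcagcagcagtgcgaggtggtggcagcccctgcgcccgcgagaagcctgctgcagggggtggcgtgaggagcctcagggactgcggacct
Mael: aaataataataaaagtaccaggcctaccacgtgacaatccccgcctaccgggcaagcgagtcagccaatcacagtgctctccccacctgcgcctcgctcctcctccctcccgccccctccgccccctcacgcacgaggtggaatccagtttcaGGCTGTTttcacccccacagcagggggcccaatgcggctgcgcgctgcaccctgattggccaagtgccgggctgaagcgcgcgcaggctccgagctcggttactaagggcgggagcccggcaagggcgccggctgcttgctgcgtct
The Piwil1 window spans chr5:128735996-128736295 on the plus strand and the Mael window chr1:166238695-166238994 on the minus strand. No match was found in the Ddx4 window or in 2 of the 3 Tdrd1 windows. A match describes letters in the window and not binding.

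The 6 samples held 244004 to 305950 reads in P/D spermatocytes and 316653 to 474688 in RS, and the members took 0.420 to 0.432% of transcript reads in P/D samples and 0.308 to 0.346% in RS samples. The summed reads of 8 round spermatid markers were 0.0395 to 0.0489% of transcript reads in P/D samples and 0.256 to 0.277% in RS samples, and all 8 were higher in RS. For 9 pachytene and diplotene markers the sums were 0.239 to 0.252% and 0.196 to 0.214%, with 5 lower and 2 higher in RS. The genes listed as elongating spermatid markers (6 genes, protamines and transition proteins among them) took 0.165 to 0.218% in P/D and 2.10 to 2.60% in RS. The study states that these mRNAs are already transcribed in RS and translated later, so at the RNA level they do not mark elongating cells. Markers of other cells were at or near 0 in the deposited counts of every sample. The macrophage and peritubular lists had 0 reads, the Sertoli list at most 1, the Leydig list 1 to 7 and the spermatogonial list 0 to 5. Of the leptotene and zygotene list only Spo11 had reads. The study's methods describe a minimum of reads per contig, so 0 reads here may stand for contigs left out. These lists therefore do not exclude other cells. The part of residual spermatid RNA in the P/D samples and of spermatocyte RNA in the RS samples in the values below was not tested. In such bulk samples, fewer cells of a type and less RNA per cell cannot be told apart.

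Of the 10 genes, 6 were lower in RS (Piwil1, Pld6, Tdrd1, Piwil2, Tdrd5 and Tdrd9), 2 were higher (Ddx4 and Tdrd7), and 2 did not pass the test (Mael and Tdrd6). Among all 4894 genes tested, 31.2% were called lower and 34.8% higher, with a median log2 fold change of 0.01, against a median of -1.11 over the members. The decreases ranged from 2.0-fold to 14.7-fold, whereas the increases were 1.4-fold. Accumulation is given as TMM-scaled CPM, which divides reads by the effective library size, and the test was edgeR's quasi-likelihood test with Benjamini-Hochberg adjustment over all genes.

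**Figure D1:**
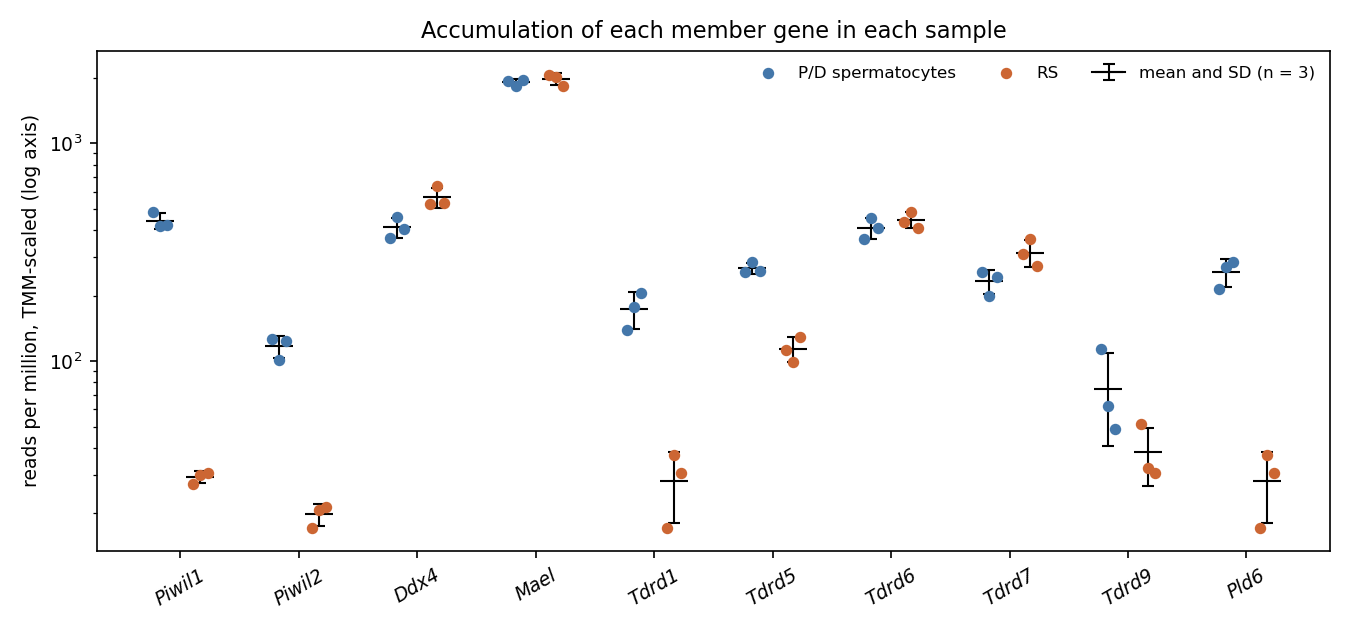
Accumulation of the 10 genes, in TMM-scaled CPM on a log axis, with 1 point per sample, 3 P/D spermatocyte samples (blue) and 3 RS samples (orange), and bars for the mean and SD. The RS points of Piwil1, Piwil2, Tdrd1, Tdrd5 and Pld6 lie below all their P/D points, while those of Mael, Tdrd6 and Tdrd9 overlap.

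The PIWI proteins are the piRNA-binding slicers of the pathway, and both mRNAs were lower in RS. Piwil1 (MIWI, the PIWI protein of pachytene piRNAs) was read 115, 127 and 113 times in P/D and 8, 13 and 10 times in RS samples, or 482, 416 and 424 against 27.3, 30.01 and 30.7 CPM. Every RS sample was below every P/D sample, a 14.7-fold decrease (log2 fold change -3.88 ± 0.22 SE, edgeR adjusted p = 3.5e-19), the largest of the 10 genes. Piwil2 (MILI, which also acts in earlier germ cells) had 30, 31 and 33 reads in P/D and 5, 9 and 7 in RS, or 126, 102 and 124 against 17.1, 20.8 and 21.5 CPM. Again the groups did not overlap, and the decrease was 5.7-fold (-2.52 ± 0.31, edgeR adjusted p = 3.2e-09). Piwil1 is encoded at chr5:128736174-128755474 by 22 exons and Piwil2 at chr14:70372477-70429094 by 23 exons, and each had a single contig.

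Pld6 and Tdrd1 fell with the PIWI genes. Pld6 (MitoPLD, also named Zucchini, is a mitochondrial surface nuclease needed for piRNA biogenesis) had 51, 83 and 76 reads in P/D and 5, 16 and 10 in RS, or 214, 272 and 285 against 17.1, 36.9 and 30.7 CPM. All RS values were below all P/D values, and the decrease was 8.7-fold (-3.12 ± 0.25, edgeR adjusted p = 3.2e-14). Its only contig (chr11:59783897-59787645) has 2 exons and is annotated as a processed transcript without a coding sequence, so its coding mRNA was not counted separately. Tdrd1, a Tudor scaffold that binds MILI, had 33, 54 and 55 reads in P/D and 5, 16 and 10 in RS over its 4 contigs, 138, 177 and 206 against 17.1, 36.9 and 30.7 CPM. The groups stood apart by 5.9-fold (-2.56 ± 0.28, edgeR adjusted p = 9.0e-11). Pld6 and Tdrd1 had the same read numbers in each RS sample.

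Tdrd5 and Tdrd9 decreased less. Tdrd5, a Tudor and LOTUS domain protein of pachytene piRNA production, had 61, 87 and 69 reads in P/D and 33, 43 and 42 in RS, which is 256, 285 and 259 against 113, 99.3 and 129 CPM. RS samples were all below P/D samples, by 2.4-fold (-1.25 ± 0.18, edgeR adjusted p = 1.45e-07). Tdrd9, an RNA helicase with a Tudor domain that partners MIWI2 in fetal germ cells, had only 27, 19 and 13 reads in P/D and 15, 14 and 10 in RS, or 113, 62.3 and 48.8 against 51.2, 32.3 and 30.7 CPM. Here the groups overlapped narrowly, since the highest RS sample lay above the lowest P/D sample. Scaled over transcripts in place of genes, the same reads did not overlap (highest RS 51.7 CPM, lowest P/D 53.0 CPM). The decrease was 2.0-fold (-0.97 ± 0.33, edgeR adjusted p = 0.0098). Without P/D replicate 1, the highest of the 3, it was no longer called (-0.60, edgeR adjusted p = 0.16), and with DESeq2 it missed the threshold (adjusted p = 0.054).

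Mael, Ddx4, Tdrd6 and Tdrd7 accumulated as much or more in RS. Mael (Maelstrom, a granule protein of piRNA precursor processing and transposon silencing) had 462, 561 and 520 reads in P/D and 606, 874 and 601 in RS, or 1937, 1838 and 1951 against 2070, 2017 and 1843 CPM, so the groups overlapped (0.05 ± 0.09, edgeR adjusted p = 0.62). Ddx4 (VASA, the RNA helicase that marks germ cells and their granules) had 88, 140 and 108 reads in P/D and 155, 275 and 173 in RS, or 369, 459 and 405 against 529, 635 and 531 CPM. Its RS samples all exceeded its P/D samples, by 1.4-fold (0.46 ± 0.13, edgeR adjusted p = 0.0020). Tdrd6 and Tdrd7 are Tudor scaffolds known for building the chromatoid body. Tdrd6 had 87, 138 and 109 reads in P/D and 128, 210 and 134 in RS, or 365, 452 and 409 against 437, 485 and 411 CPM, with overlapping groups (0.12 ± 0.13, edgeR adjusted p = 0.44). Tdrd7 had 61, 61 and 65 reads in P/D and 91, 157 and 89 in RS, 256, 200 and 244 against 311, 362 and 273 CPM. No Tdrd7 value in RS fell within the P/D range, and the increase was 1.4-fold (0.46 ± 0.16, edgeR adjusted p = 0.013). That call was lost without P/D replicate 2 (0.33, edgeR adjusted p = 0.11), without RS replicate 2 (0.33, edgeR adjusted p = 0.096) and with DESeq2 (0.45, adjusted p = 0.066).

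Poly(A) tails of the members did not move together. By limma on each gene's mean tail in each sample, 5 of the 10 genes had longer tails in RS (Mael, Tdrd9, Piwil2, Tdrd6 and Tdrd5), 2 had shorter tails (Piwil1 and Pld6) and 3 did not pass the test (Ddx4, Tdrd1 and Tdrd7). With the replicate number as a block, Tdrd5 and Pld6 missed the threshold (limma adjusted p = 0.085 and 0.084) and Tdrd7 was called shorter (limma adjusted p = 0.049), so these 3 calls depend on whether same-numbered pools are treated as pairs. Among all 5318 genes tested 54.9% were longer and 2.11% shorter, and the median difference was 34.9 nt over all genes and 19.1 nt over the members. In every gene the 3 RS means lay on 1 side of the 3 P/D means, above in 7 genes and below in 3. Over all genes this was so for 62.3% (above) and 3.1% (below) of the 5035 genes with a mean in all 6 samples.

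**Figure D2:**
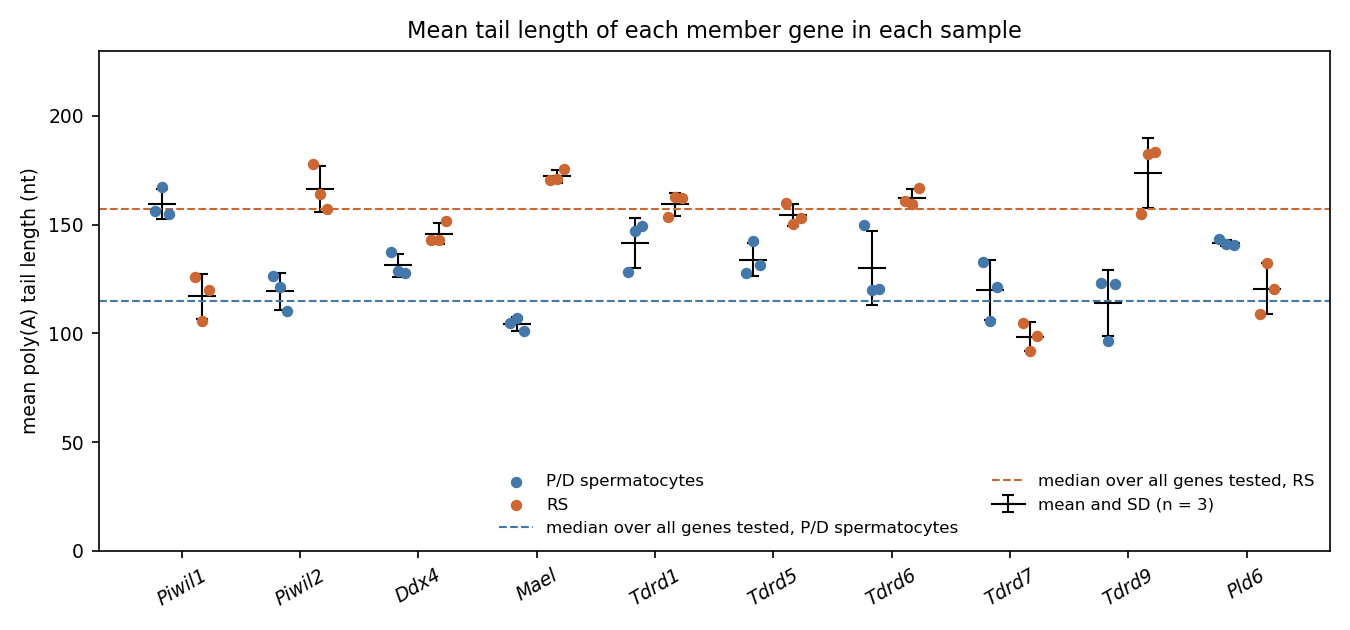
Mean poly(A) tail length in nt of the 10 genes, 1 point per sample, with bars for the mean and SD and dashed lines at the median over all genes tested, 115 nt in P/D spermatocytes (blue) and 157 nt in RS (orange). Piwil1, Tdrd7 and Pld6 are the genes whose RS points lie below their P/D points.

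Piwil1 and Piwil2 differed in opposite directions. The mean tails of Piwil1 were 157, 168 and 155 nt in P/D spermatocytes and 126, 106 and 120 nt in RS. Every RS sample was shorter, and the difference was -42.6 ± 7.34 nt (SE, limma adjusted p = 0.0032). For Piwil2 the means were 127, 122 and 110 nt in P/D and 178, 164 and 157 nt in RS, all longer in RS, with a difference of 47.0 ± 7.74 nt (limma adjusted p = 0.0027). In each P/D sample Piwil1 tails were the longer by 30.1, 45.9 and 44.7 nt, and in each RS sample they were the shorter (differences of -52.1, -58.7 and -37.3 nt). The gap changed by -89.6 nt. As neither gene's groups overlapped and their directions were opposite, the gap was bound to separate the cell types. The exact two-sided permutation test over samples could then only give the smallest p of 3 samples against 3 (p = 0.1), which adds no support. Piwil2 had below 10 reads in every RS sample and entered the tail test through P/D only, the cell type in which it was higher. The RS values rest on few molecules, as the standard error over reads within a sample was 22.4 to 29.7 nt for Piwil1 and 11.8 to 35.1 nt for Piwil2. The SD of the 3 RS means, 10.4 nt for Piwil1 and 10.6 nt for Piwil2, was below these standard errors. The SE of the differences and the p-values therefore do not cover the counting error. Both calls held in each of the 6 fits that left out a sample, which does not test the counting error either.

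Among the 5318 genes, Piwil1 stood at percentile 89.2 of mean tail length in P/D spermatocytes and at percentile 9.8 in RS. Its difference was at percentile 0.9 of all differences, whereas that of Piwil2 was at percentile 63.1. In RS these ranks rest on 31 reads of Piwil1 and 21 of Piwil2, so they are imprecise.

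Pld6 and Tdrd7 were the other genes with shorter means in RS. Pld6 means were 143, 141 and 141 nt in P/D and 109, 133 and 121 nt in RS, without overlap, or -21.2 ± 7.14 nt apart (limma adjusted p = 0.0445). The Pld6 call was kept only when RS replicate 2 was left out (-27.1 nt, limma adjusted p = 0.021), and without any of the other 5 samples in turn it was lost (limma adjusted p = 0.083 to 0.12), as it was with the replicate block (limma adjusted p = 0.084). Tdrd7 means were 133, 106 and 122 nt in P/D and 105, 92.0 and 98.7 nt in RS, also without overlap, with a difference of -21.4 ± 8.41 nt that missed the threshold (limma adjusted p = 0.072). With the median of reads in place of the mean Tdrd7 passed it (-25.7 nt, limma adjusted p = 0.033), as it did without P/D replicate 2 (-28.6 nt, limma adjusted p = 0.020) and under the replicate block (limma adjusted p = 0.049). The RS tails of Tdrd7 were at percentile 3.0 of all genes, from 337 reads, and those of Pld6 at percentile 11.7, from 31 reads.

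Mael had the greatest lengthening and the most reads. Its mean tails were 105, 107 and 101 nt in P/D spermatocytes and 170, 171 and 176 nt in RS. The groups were far apart relative to their spread, with a difference of 67.9 ± 4.87 nt (limma adjusted p = 0.00025) at percentile 87.6 of all genes. Tdrd9 went from 123, 96.3 and 123 nt to 155, 183 and 183 nt, a difference of 59.7 ± 11.3 nt (limma adjusted p = 0.0049), on 59 reads in P/D and 39 in RS. Its lowest RS sample lay above its highest P/D sample. The calls of Mael and Tdrd9 held in each fit that left out a sample.

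Tdrd6 and Tdrd5 lengthened by less. Tdrd6 means were 150, 120 and 120 nt in P/D and 161, 160 and 167 nt in RS, a difference of 32.3 ± 9.30 nt (limma adjusted p = 0.026). P/D replicate 1 stood close to the RS values, and without it the difference was 42.2 nt (limma adjusted p = 0.0022), but without any of the other 5 samples in turn the call was lost (limma adjusted p = 0.059 to 0.080). Tdrd5 means were 128, 142 and 131 nt in P/D and 160, 150 and 153 nt in RS, a difference of 20.5 ± 6.18 nt (limma adjusted p = 0.030). The Tdrd5 call was kept without P/D replicate 2 (24.8 nt, limma adjusted p = 0.017) and lost without any of the other 5 samples (limma adjusted p = 0.055 to 0.10) and under the replicate block (limma adjusted p = 0.085).

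Ddx4 and Tdrd1 had longer means in RS that did not pass the test. Ddx4 means were 137, 129 and 128 nt in P/D and 143, 143 and 152 nt in RS, 14.6 ± 5.57 nt apart (limma adjusted p = 0.066). Tdrd1 means were 128, 147 and 149 nt in P/D and 153, 163 and 162 nt in RS, 17.7 ± 7.41 nt apart (limma adjusted p = 0.087). In both genes the RS samples lay above the P/D samples. With medians of reads the differences were 22.1 nt for Ddx4 (limma adjusted p = 0.017) and 34.1 nt for Tdrd1 (limma adjusted p = 0.012). Without P/D replicate 1 the mean of Ddx4 also passed (17.7 nt, limma adjusted p = 0.044).

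Ordered by mean tail in P/D spermatocytes, the genes ran from Mael (104 ± 3.26 nt, SD, n = 3), Tdrd9, Piwil2, Tdrd7, Tdrd6, Ddx4 and Tdrd5 to Tdrd1 and Pld6 (142 nt each) and Piwil1 (160 ± 6.86 nt). In RS the order ran from Tdrd7 (98.6 ± 6.55 nt), Piwil1 and Pld6 (117 and 121 nt) through Ddx4, Tdrd5, Tdrd1, Tdrd6 and Piwil2 to Mael (172 ± 2.86 nt) and Tdrd9 (174 ± 16.1 nt). The means of neighbours differed by less than the larger of their SDs, except Pld6 and Piwil1 in P/D spermatocytes, and Tdrd7 and Piwil1, Pld6 and Ddx4, and Ddx4 and Tdrd5 in RS. In P/D spermatocytes 8 of the 10 genes had tails above the median of all genes, and in RS 5 did.

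Because most genes had longer tails in RS, each sample was also centred on its own median over genes. On this scale the median difference of all genes was -8.08 nt, 14.1% of genes were called relatively longer and 23.5% relatively shorter. Of the members 1 was relatively longer, Mael (24.9 ± 4.86 nt, limma adjusted p = 0.012), and 5 were relatively shorter, namely Piwil1 (-85.5 ± 7.03 nt, limma adjusted p = 0.0036), Tdrd7 (-64.4 ± 7.50 nt, limma adjusted p = 0.0046), Pld6 (-64.1 ± 7.87 nt, limma adjusted p = 0.0046), Ddx4 (-28.3 ± 4.82 nt, limma adjusted p = 0.0087) and Tdrd5 (-22.5 ± 6.68 nt, limma adjusted p = 0.042). Tdrd1, Tdrd6, Piwil2 and Tdrd9 did not pass, although Tdrd1 did without P/D replicate 1 (-33.5 nt, limma adjusted p = 0.018). The Tdrd5 call was lost without any sample other than P/D replicate 1 (limma adjusted p = 0.074 to 0.12) and under the replicate block (limma adjusted p = 0.096), and the Mael call without RS replicate 2 (23.9 nt, limma adjusted p = 0.053). Over 10 alternative settings the Tdrd5 call was kept in 2. Centred on the mean over genes instead, 1267 of 5318 genes were relatively longer and 889 relatively shorter. The balance over all genes thus depends on the centre. For the members that centre gave 1 longer and 4 shorter.

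Single-read tails were then divided into classes of below 30 nt, 30 to 120 nt (around 60 nt), 120 to 210 nt (around 150 nt) and 210 nt and over. The share of the 120 to 210 nt class was higher in RS for 7 of the 10 genes and lower for 1, against 55.9% and 2.76% of all genes. It rose from 24.3 ± 2.69% to 74.1 ± 1.14% of Mael reads (SD, n = 3 samples each), a difference of 49.8 ± 3.69 percentage points (SE, limma adjusted p = 0.00023). Similar gains were found for Tdrd9 (25.5 to 74.9%), Tdrd5 (36.9 to 84.2%) and Piwil2 (30.9 to 74.5%), followed by Tdrd6 (36.0 to 67.7%), Tdrd1 (35.6 to 60.8%) and Ddx4 (36.9 to 57.4%). Ddx4 and Tdrd1 thus passed the test on this share (limma adjusted p = 0.0082 and 0.0026) while missing it on the mean. The Piwil2 and Tdrd1 calls were lost with an upper bound of 180 nt (26.7 and 3.88 percentage points, limma adjusted p = 0.13 and 0.70).

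Piwil1 was the member whose share fell, from 34.7 ± 4.75% to 10.1 ± 2.40%, a difference of -24.7 ± 4.24 percentage points (limma adjusted p = 0.0033). In RS the class held 3 of 31 Piwil1 reads, so the small SD and the p-value do not cover the counting error. The 30 to 120 nt class of Piwil1 held 34.5 ± 4.03% of P/D reads and 61.3 ± 1.26% of RS reads, on 355 and 31 reads in all. Tails of 210 nt and over made up 28.5 ± 0.21% and 23.5 ± 7.43%. Tdrd7 went the same way without passing the test, from 32.7 ± 4.44% to 21.9 ± 0.48% (limma adjusted p = 0.059), and with no upper bound on the class it passed (-16.2 percentage points, limma adjusted p = 0.029). The share of Pld6 was 48.5 ± 7.12% in P/D and 49.2 ± 11.3% in RS (limma adjusted p = 0.95), and its 210 nt and over class held 13.2 ± 2.58% and 2.08 ± 3.61%. Tails below 30 nt were rare in the members, with at most 5.13% of reads as a mean of samples in either cell type. Per the study's methods the mRNA was captured by its tail on oligo(dT) beads, and whether this lowered the share of short tails was not tested.

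**Figure D3:**
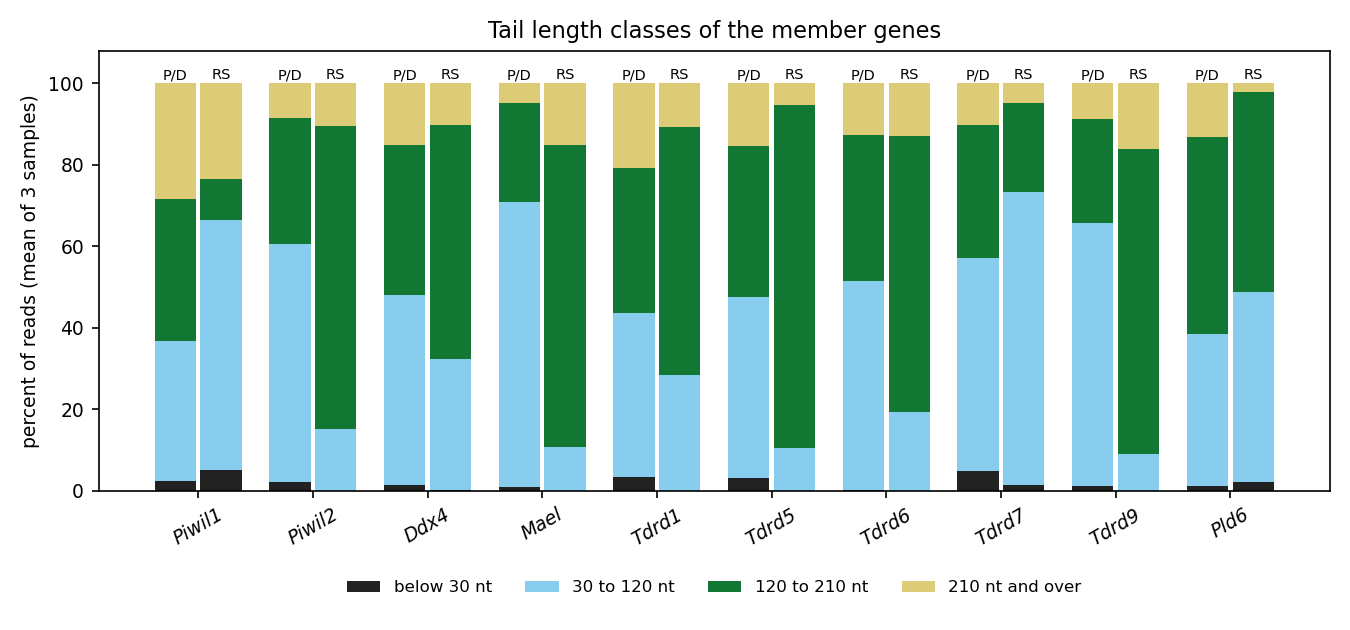
Tail length classes of the 10 genes as stacked bars, in percent of reads, each bar the mean of 3 samples of P/D spermatocytes (left) or RS (right). The 120 to 210 nt class (green) makes up most of the RS bar of Mael, Tdrd5, Tdrd9 and Piwil2 (74.1 to 84.2%) and 10.1% of that of Piwil1.

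**Figure D4:**
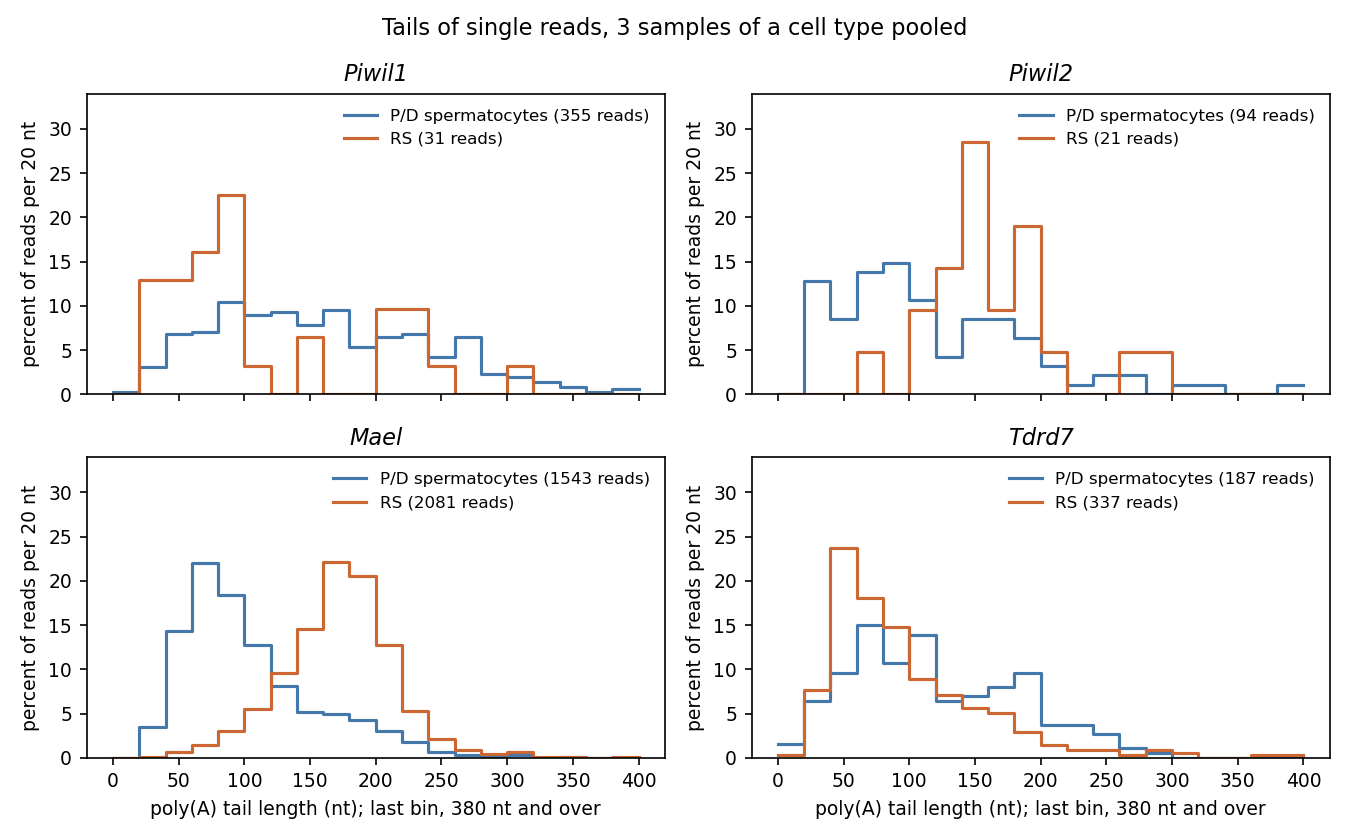
Tail lengths of single reads of Piwil1, Piwil2, Mael and Tdrd7 in bins of 20 nt, in percent of the reads of each cell type with 3 samples pooled, P/D spermatocytes in blue and RS in orange, with read numbers in the legends. Mael reads shift from a mode near 60 to 80 nt to one at 160 to 180 nt, while Tdrd7 reads in RS are most frequent at 40 to 60 nt.

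Accumulation and tails were set side by side. Of the 6 genes lower in RS, 3 had longer tails (Piwil2, Tdrd5 and Tdrd9), 2 had shorter tails (Piwil1 and Pld6) and 1, Tdrd1, had no tail call. Among all 1516 genes that were lower in RS and tested for both, 63.2% had longer and 3.23% shorter tails. Neither gene that was higher in RS (Ddx4 and Tdrd7) had a tail call, and of all 1664 such genes 40.2% were longer and 1.38% shorter. Both genes without a difference in accumulation, Mael and Tdrd6, had longer tails, as had 68.8% of all 1656 such genes. With the replicate block, Tdrd5 and Pld6 were among the lower genes without a tail call, and Tdrd7 was higher in accumulation and shorter in tail.

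**Figure D5:**
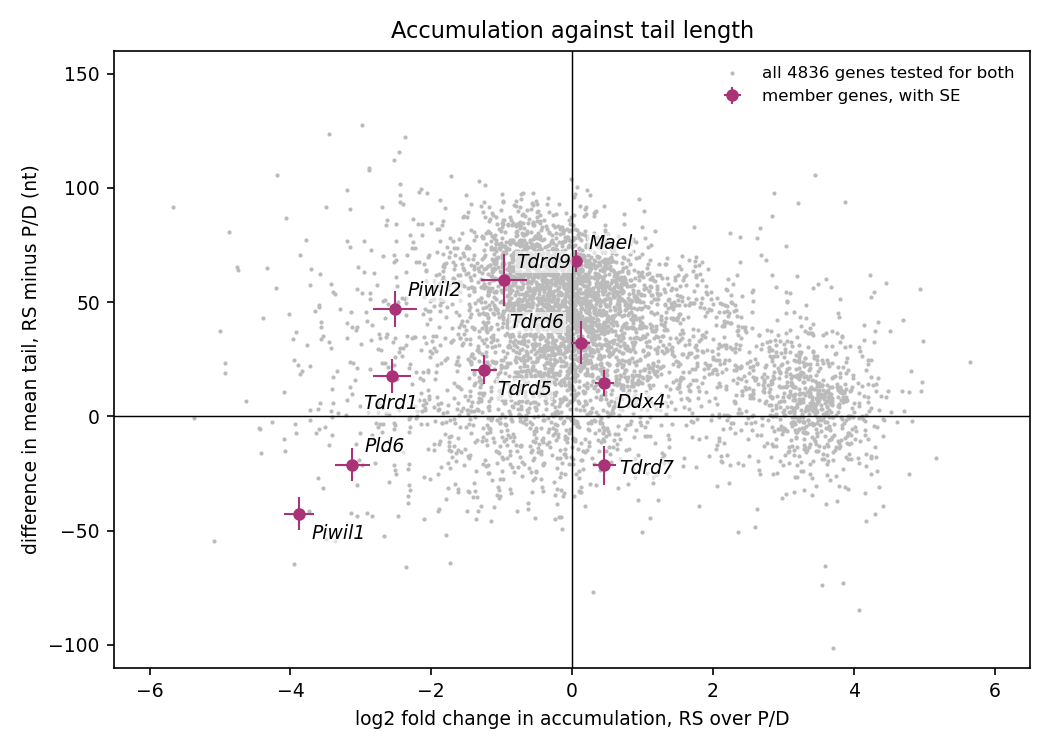
Log2 fold change in accumulation (x axis, RS over P/D) against the difference in mean tail length in nt (y axis, RS minus P/D), with all genes tested for both in grey and the 10 members in purple with their SE; 2 of the grey genes lie outside the axes. Piwil1 (-3.88 and -42.6 nt) and Pld6 (-3.12 and -21.2 nt) are in the lower left, and Piwil2 (-2.52 and 47.0 nt) is at a similar position on the x axis but above 0 on the y axis.

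Of the 18 contigs, 17 had at least 10 reads in 2 samples of a cell type and the remaining one, a short processed transcript of Tdrd7, had 8 reads, all in RS. At this level 15 were tested for accumulation, with 3 higher and 8 lower in RS, against 32.6% and 30.8% of 6005 transcripts, and 16 for tails, with 7 longer and 1 shorter, against 54.2% and 1.69% of 6990. Minimap2 can place reads of near-identical isoforms on either of them, so the split within a gene is less certain than the gene's sum. No read of a member was placed on more than 1 contig.

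The transcripts of a gene were not always alike. Mael had a main transcript (ENSMUST00000038782, 12 exons, chr1:166201385-166238744, minus strand) and a second one (ENSMUST00000194057, 11 exons), which ends at chr1:166201201, downstream of the main one. The main transcript had 438, 531 and 493 reads in P/D and 562, 740 and 519 in RS, a log2 fold change of -0.12 ± 0.10 (edgeR adjusted p = 0.29). The second had 24, 30 and 27 reads in P/D and 44, 134 and 82 in RS and was 2.3-fold higher (1.21 ± 0.22, edgeR adjusted p = 8.9e-06). Its share of Mael reads was 5.20, 5.35 and 5.19% in P/D and 7.26, 15.3 and 13.6% in RS, without overlap (exact two-sided permutation test, p = 0.1, the smallest possible). Both lengthened alike, by 67.6 ± 5.44 and 70.5 ± 6.77 nt (limma adjusted p = 0.00049 and 0.00054).

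Ddx4 had 2 transcripts with ends 2 bases apart. ENSMUST00000075748 had 33, 46 and 37 reads in P/D and 52, 115 and 91 in RS and rose 1.6-fold (0.70 ± 0.19, edgeR adjusted p = 0.0017), and ENSMUST00000099166 had 55, 94 and 71 and 103, 160 and 82 (0.21 ± 0.16, edgeR adjusted p = 0.27), and passed without RS replicate 3 (0.40, edgeR adjusted p = 0.046). The first took 34.9 ± 2.38% of Ddx4 reads in P/D and 42.7 ± 9.55% in RS (SD, n = 3), with overlapping samples (exact two-sided permutation test, p = 0.3). Neither passed the tail test (limma adjusted p = 0.23 and 0.17).

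Of the Tdrd7 transcripts, which share their 3′ end at chr4:46034761, ENSMUST00000102929 had 32, 46 and 39 reads in P/D and 43, 73 and 41 in RS (-0.02 ± 0.20, edgeR adjusted p = 0.94). ENSMUST00000107777, which starts upstream, had 29, 15 and 26 and 45, 83 and 44 reads and rose 1.8-fold (0.83 ± 0.25, edgeR adjusted p = 0.0031), a call lost without P/D replicate 2 (0.52, edgeR adjusted p = 0.074). Their tails differed by -24.5 ± 10.1 and -13.8 ± 11.5 nt (limma adjusted p = 0.084 and 0.35), so neither passed, although ENSMUST00000102929 did without P/D replicate 2 (-31.4 nt, limma adjusted p = 0.045) and without RS replicate 1 (-32.6 nt, limma adjusted p = 0.042).

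For Tdrd5, ENSMUST00000121146 had 51, 75 and 58 reads in P/D and 33, 41 and 42 in RS (-1.09 ± 0.20, edgeR adjusted p = 6.7e-06), with tails 24.8 ± 7.08 nt longer (limma adjusted p = 0.025). The tail call was lost without P/D replicate 1 or 3 or RS replicate 1 or 3 (limma adjusted p = 0.058 to 0.087), and under the replicate block (limma adjusted p = 0.076). ENSMUST00000167528 had 10, 12 and 11 reads in P/D and 0, 2 and 0 in RS. It was called lower in RS (edgeR adjusted p = 1.1e-07), and its share of Tdrd5 reads was 15.4 ± 1.39% in P/D and 1.55 ± 2.69% in RS. Its tails in P/D averaged 163 ± 8.59 nt, against 128.5 ± 8.40 nt for the main transcript, and could not be tested in RS.

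The 4 Tdrd1 transcripts share an end at chr19:56870012 and had 5 to 20 reads each in P/D samples and 0 to 10 in RS samples. ENSMUST00000111606 and ENSMUST00000111604 were tested and were lower in RS (-1.97 ± 0.38 and -3.80 ± 0.56, edgeR adjusted p = 1.6e-05 and 1.4e-07). Tails were longer in RS for ENSMUST00000111606 (34.8 ± 10.5 nt, limma adjusted p = 0.030), which was lost without any of the 3 RS samples (limma adjusted p = 0.057 to 0.095). In the other transcripts the differences, of ENSMUST00000078723, ENSMUST00000111604 and ENSMUST00000121249, were 11.2 ± 26.0, -14.5 ± 19.1 and -0.91 ± 17.2 nt, each resting on 2 RS samples. Piwil1, Piwil2, Tdrd6 and Tdrd9 have a single transcript with the same call in both tests as the gene, and that of Pld6 missed the tail threshold when adjusted over transcripts (limma adjusted p = 0.053). With the replicate block the Tdrd6 transcript missed it as well (limma adjusted p = 0.053).

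The wider pathway was followed through 38 partner genes, of which 27 had reads in the deposited counts. Of the 22 tested for accumulation, 7 were higher and 12 lower in RS (median log2 fold change -0.57), and of the 24 tested for tails, 11 were longer and 0 shorter (median difference 23.4 nt). Among all genes tested 34.8% were higher, 31.2% lower, 54.9% longer and 2.11% shorter. At an unadjusted p below 0.05, 1 partner was shorter by limma and 0 by the methods' t-test. Some partners called longer had below 10 reads in every RS sample and entered the tail test through P/D only. With at least 10 reads in 2 samples of both cell types, 11 partners were tested, with 8 longer and 0 shorter. Of all 3430 genes tested that way 2508 were longer and 91 shorter. The counts by group of partners are small and were not tested against each other. Of piRNA-making and germ granule partners 7 of 10 were lower and 2 higher, with 8 of 11 longer in tail, and both tested regulators of piRNA gene transcription, Mybl1 and Tcfl5, were lower (Mybl1 is named here outside the rule on read numbers, -1.20 ± 0.38, edgeR adjusted p = 0.0057). Of chromatoid body and RNA decay proteins 5 of 10 were higher and 3 lower, with 2 of 11 longer in tail.

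Among partners with enough reads to be named, the strongest increases were those of Kif17 (a kinesin associated with the chromatoid body, 3.70 ± 0.35), Tsks (3.66 ± 0.27) and the testis-specific kinases Tssk2 (3.48 ± 0.21) and Tssk1 (3.44 ± 0.20), all log2 fold changes with SE. Tssk1, which is also among the round spermatid markers, and Tssk2 are close relatives with near-equal read numbers in each sample, and no read was listed for both. Their tails in RS, 162 and 163 nt, differed little from those in P/D spermatocytes, 157 and 161 nt (limma adjusted p = 0.70 and 0.82). Meioc, a meiotic regulator, was lower in RS (-1.39 ± 0.27), as were Tcfl5, a transcription factor of pachytene piRNA loci (-0.65 ± 0.13), and the heat shock protein Hspa2 (-0.49 ± 0.11). Each of these 7 differences passed edgeR's test (largest adjusted p = 0.00014).

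Of partners with 20 reads or more throughout, the largest tail difference belonged to Gtsf1, a PIWI cofactor (70.9 ± 4.79 nt, limma adjusted p = 0.00025). Next were Ddx25, a helicase (58.6 ± 5.35 nt, limma adjusted p = 0.00031), and Rnf17, a Tudor domain protein also named TDRD4 (31.2 ± 8.89 nt, limma adjusted p = 0.025). These values bracket those of Mael and Tdrd6. The smallest were 14.0 ± 5.64 nt for Hspa2 (limma adjusted p = 0.077), 19.97 ± 6.24 nt for Tcfl5 (limma adjusted p = 0.034) and 20 ± 5.59 nt for Adad1 (limma adjusted p = 0.023).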

How the data were processed

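The deposited counts are raw reads per contig, unnormalized, and the authors also deposited the poly(A) tail length in nt of every read with its contig and sample, not normalized further. Per the study's methods, reads were basecalled with Guppy, demultiplexed with Deeplexicon, aligned to GENCODE transcripts of GRCm38 with minimap2 (2.20-r1061 in the submitters' processing notes) and measured with Nanopolish. The counts equalled the reads of the tail table in all 12114 contigs and 6 samples. The 597 repeat contigs were left out.

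Reads were summed per gene symbol and tested with edgeR 4.0.16 (TMM, filterByExpr, quasi-likelihood F-test) in R 4.3.3. Mean tails per gene and sample were tested with limma 3.58.1 (lmFit, eBayes) for genes with 10 or more reads in 2 samples of either cell type and reads in 2 or more samples of both. The fits cover all features, and p-values are Benjamini-Hochberg adjusted over all of them, with a threshold of 0.05. Transcripts were fitted the same way. Single values over samples were compared by exact permutation in scipy 1.17.1. The scripts were tested on simulated data. DESeq2 1.42.0, other filters, scales and class bounds, and omission of each sample were alternatives. Per the study's reporting summary the same mice gave both cell types, but no mice are tied there to numbered pools. The fit without a block follows the study's methods and treats the 6 samples as independent, and the replicate number as a block was the alternative. Read numbers cover counting error only, and a gene mean from 10 reads is imprecise.

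The members, partner genes and marker lists were chosen with earlier results of these data known. All members are described, contigs with at least 10 reads in 2 samples of a cell type are described singly, and partners are named by fold change (at least 20 reads in each sample of the higher cell type) or tail difference (at least 20 reads in every sample), 4 or 3 in each direction where that many passed.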

Additional observations from a re-analysis of the deposited data

How the results depend on the processing

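Where 10 reads were required throughout, 2 of the 6 genes and 2 of the 9 transcripts still tested were lower in RS. Of 7 partners tested that way 3 were higher and 3 lower. Over all features 803 of 2855 genes were higher and 771 lower, and 725 of 3077 transcripts were lower. Where 20 reads were required, 1 gene of 5 tested was shorter in tail, 3 were relatively shorter and 4 higher in share. Of all 1858 genes tested that way 47 were shorter, 612 relatively shorter and 1607 higher in share. At 20 reads 4 of 7 transcripts were longer, against 1592 of all 1827. All 6 partners tested were longer, against 1599 of all 1858 genes. DESeq2 called 1 gene higher, against 1494 of all 4894 genes. Shorter genes numbered 1 on the log2 scale and 1 by the methods' t-test after adjustment, which called 7 partners longer. Of all 5318 genes 107 were shorter on the log2 scale and 71 by that t-test, which called 2567 longer. Shorter transcripts numbered 2 with medians, 2 weighted by reads, 2 by the unadjusted t-test, and 3 with at least 10 reads in 2 samples of both cell types or tails of 10 to 300 nt. Over all transcripts these settings called 115, 148, 134, 92 and 128 shorter, of 6990, 6990, 6990, 3889 and 6978 tested. With all tails of at least 120 nt as the class, 2 genes were lower in share, against 159 of all 5318 genes. Leaving out each sample in turn gave 1 to 2 genes higher, 5 to 6 lower, 3 to 5 longer, 1 to 2 shorter, 0 to 1 relatively longer and 4 to 6 relatively shorter, with 7 higher and 1 lower in share throughout. For transcripts it gave 2 to 4 higher, 8 to 10 lower, 4 to 6 longer and 1 to 2 shorter, and for partners 7 to 8 higher, 12 to 13 lower, 5 to 11 longer and 0 to 1 shorter. Over all genes these fits called 1668 to 1798 higher and 1502 to 1652 lower, of 5204 to 5247 tested. Of 5117 to 5289 genes tested for tails, 2573 to 2929 were longer and 63 to 125 shorter. Relative to the median 323 to 664 were longer and 757 to 1176 shorter, and 2692 to 2882 were higher and 90 to 151 lower in share.

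Values that changed sign were called under neither setting. These were the accumulation of Tdrd7 ENSMUST00000102929 (0.0337 with relative log expression, 0.0296 with DESeq2, 0.18 with 10 reads throughout, -0.12 to 0.12 when each sample was left out), Mael ENSMUST00000038782 (0.0766 with 10 reads throughout), Tdrd6 ENSMUST00000168073 (-0.0646 to 0.16 when each sample was left out) and Mael as a gene (-0.0042 with no filter). Tail differences were 6.29 nt (medians), 8.16 nt (weighted), 10.5 nt (10 to 300 nt) and -3.25 to 3.54 nt (each sample left out) for Tdrd1 ENSMUST00000121249 and -10.3 to 23.6 nt (each sample left out) for Tdrd1 ENSMUST00000078723. The relative tail of Piwil2 ran from -1.55 to 10.1 nt as each sample was left out. The share of Pld6 was -10.4 percentage points with tails of at least 120 nt, and -4.75 to 6.5 as each sample was left out. The cause of these changes was not tested. Of 829 values of single members under alternatives, 715 kept direction and side of the threshold.

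The cell types share their mice, but whether same-numbered pools hold the same ones is not given in the sources used here. As a check of the pairing, deviations of same-numbered samples correlated at 0.066, 0.259 and 0.071 for accumulation and 0.0023, 0.106 and -0.0023 for tails over 1858 genes. Those of differently numbered samples ran from -0.152 to 0.102 for accumulation and from -0.089 to 0.080 for tails. The ranges overlap, so the check does not settle the pairing. With the replicate block 4 genes were longer (Tdrd5 lost, limma adjusted p = 0.085) and 2 shorter (Pld6 lost, 0.084, and Tdrd7 gained, 0.049), 4 were relatively shorter, 5 transcripts and 9 partners were longer, and calls of accumulation and share numbered the same. Of all 5318 genes 2781 were longer, 94 shorter and 902 relatively shorter with the block, and 3577 of 6990 transcripts were longer. Depth limits Piwil1, Piwil2, Tdrd1, Tdrd9 and Pld6 most, each with at most 16 reads in an RS sample.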
